A study of Caenorhabditis elegans with 12 samples.

Results

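Genes that make phosphatidylcholine were followed in whole Caenorhabditis elegans exposed to the statin fluvastatin, a drug that blocks HMG-CoA reductase, the enzyme at the entry to sterol and isoprenoid synthesis. The set was a list of 10 names: the choline kinase genes cka-1, cka-2, ckb-1, ckb-2, ckb-3 and ckb-4, the phosphoethanolamine methyltransferase genes pmt-1 and pmt-2, and the genes pcyt-1 and cept-1. Of these names 8 are gene symbols in the deposited table, out of 30301 genes. The other 2, pcyt-1 and cept-1, stand there only under their sequence names, F08C6.2 and F22E10.5, so they fall outside the symbol rule and are described as neighbours in the pathway. The 4 groups were dlk-1 mutant with 1 mM fluvastatin, dlk-1 mutant with 0 mM, wild type with 1 mM and wild type with 0 mM, with 3 libraries each. All animals were grown on bacterial lawns, were moved to the test plates at the last larval stage and were collected after 9 h as populations of whole animals from several plates per condition. The sample titles call the mutant a p38 knockout, while the growth protocol names dlk-1, which encodes a kinase upstream of a p38 MAP kinase. No source used here gives the allele or the lesion. Libraries were made with a kit that does not mark strand, and whether the replicates were separate cultures is not stated. The spread behind each p-value may therefore not be that between separate cultures.

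Phosphatidylcholine is the main phospholipid of animal membranes. In the choline branch, a choline kinase phosphorylates choline, a cytidyl transferase (pcyt-1) makes CDP-choline, and a transferase (cept-1) joins it to diacylglycerol. Nematodes share with plants a second branch, in which PMT-1 and PMT-2 methylate phosphoethanolamine in turn to phosphocholine, with S-adenosylmethionine as methyl donor. Both branches meet at phosphocholine, the substrate of that cytidyl transferase. In worms, low phosphatidylcholine is known to activate SBP-1, the SREBP factor of lipid synthesis, and the unfolded protein response of the endoplasmic reticulum, and ckb-2 has been listed among genes induced by stress in that compartment.

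The libraries held 9370975 to 12438131 reads with 1 transcript model per gene. Values are normalised reads, which are reads divided by 1 size factor per library, and a gene was tested when 3 or more libraries reached 10 of them, which left 15529 genes. Of the 8 genes of the set 7 passed this filter. The libraries stood apart by replicate number: on the first principal component (58.5% of the variance) all libraries numbered 2 lay away from those numbered 1 and 3, and on the second (14.4%) fluvastatin libraries lay away from control libraries. The dlk-1 transcript itself lay at 706 to 804 normalised reads in mutant fluvastatin libraries and at 481 to 541 in mutant control libraries, against 983 to 1419 in wild type fluvastatin and 791 to 961 in wild type control libraries. It was thus lower in every mutant library than in every wild type library of the same treatment, and with the lesion not given this level is a weak check of the labels. In whole animals, fewer cells of a type and less RNA per cell cannot be told apart.

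ckb-2 was the choline kinase gene whose transcript rose with fluvastatin, in both genotypes. This gene (B0285.9, WBcel235 chromosome III, 4367949 to 4370160, plus strand, 8 exons) lies 479 bases after ckb-1 and 724 bases before ckb-3, in a row of choline kinase genes on the same strand. In dlk-1 mutant fluvastatin libraries it had 682, 794 and 830 normalised reads, against 276, 355 and 222 in dlk-1 mutant control libraries. In wild type fluvastatin libraries it had 881, 941 and 1065, against 257, 398 and 293 in wild type control libraries. The lowest fluvastatin library of either genotype was above the highest control library of both. The group means were 769 ± 77.1 and 285 ± 66.9 in the mutant with and without fluvastatin, and 962 ± 93.9 and 316 ± 73.3 in wild type (SD, n = 3 each).

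The rise of ckb-2 was 1.45 ± 0.20 on the log2(value + 1) scale in the mutant (SE; 95% interval 1.02 to 1.89; limma, Benjamini-Hochberg adjusted p = 0.00329). In wild type it was 1.62 ± 0.20 (95% interval 1.19 to 2.06; limma, adjusted p = 0.00122). These are 2.74-fold and 3.08-fold levels. Fluvastatin libraries were higher than the control library of the same number in 3 of 3 pairs of each genotype, by log2 values of 1.30, 1.16 and 1.90 in the mutant and 1.78, 1.24 and 1.86 in wild type. ckb-2 was 1 of 7 tested genes of the set called in either genotype, where the share of all tested genes called was 1.38% in the mutant and 1.82% in wild type. By size it was the 116th of 175 called rises in the mutant and the 127th of 216 in wild type, so larger rises were common. Leaving out all libraries of 1 replicate number leaves 2 libraries a group. The call was lost without number 1 (log2 1.53, limma adjusted p = 0.170 in the mutant and 1.55, adjusted p = 0.140 in wild type). It was also lost without number 3 (1.23, adjusted p = 0.329 and 1.51, adjusted p = 0.151) and kept without number 2. Calls among all tested genes in mutant and wild type fell from 214 and 282 to 48 and 56 without number 1. Without number 3 they fell to 43 and 43.

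**Figure D1:**
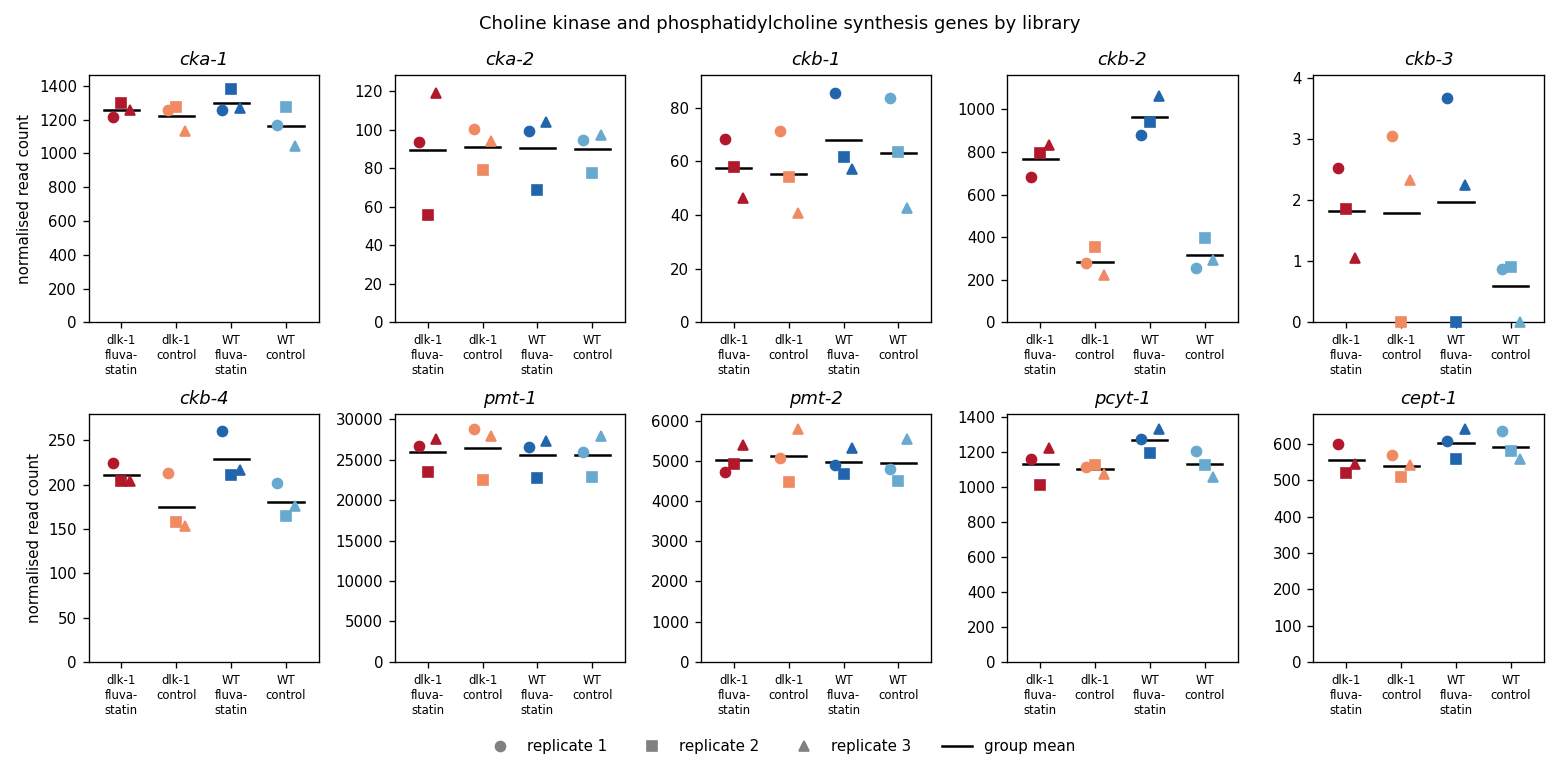
Normalised read count (y axis, linear, from 0, a separate scale per gene) of each gene in each library, for dlk-1 mutant fluvastatin, dlk-1 mutant control, wild type (WT) fluvastatin and wild type control libraries. Marker shapes are replicate numbers and bars are means of 3 libraries. The ckb-2 fluvastatin libraries sit at 682 to 1065, above all control libraries at 222 to 398, while pmt-1, pmt-2 and cept-1 overlap between fluvastatin and control.

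The neighbours of ckb-2 did not pass the test. ckb-1 (B0285.8, chromosome III, 4365274 to 4367469) had 68.4, 57.8 and 46.5 normalised reads in mutant fluvastatin and 71.1, 54.3 and 40.7 in mutant control libraries, and 85.6, 61.4 and 57.2 in wild type fluvastatin against 83.5, 63.3 and 42.7 in wild type control libraries. Its groups overlapped, and its log2 changes were 0.07 ± 0.31 in the mutant (95% interval -0.62 to 0.76) and 0.14 ± 0.31 in wild type (-0.56 to 0.83). Replicate 1 was the highest and replicate 3 the lowest ckb-1 library in all 4 groups. ckb-3 (B0285.10, chromosome III, 4370885 to 4372820) was close to silent, with 0 to 4 whole reads in a library, and was not tested. Its reads were 3, 2 and 1 in mutant fluvastatin, 3, 0 and 2 in mutant control, 4, 0 and 2 in wild type fluvastatin, and 1, 1 and 0 in wild type control libraries, too few to show a difference. Reads of these related genes could be divided among them by the authors' counting, which was not tested. An annotated noncoding RNA, srpr-1.2, lies within ckb-2 on the same strand and shares 0 exonic bases with it.

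ckb-4 (F22F7.5, chromosome V, 2106398 to 2109434, minus strand) was the only other kinase gene higher with fluvastatin in every pair of libraries of the same number in both genotypes. It had 224, 204 and 204 normalised reads in mutant fluvastatin, against 213, 158 and 153 in mutant control libraries. In wild type it had 260, 210 and 217 with fluvastatin, against 202, 165 and 176 in control libraries. The wild type groups did not overlap and the mutant groups did. Its log2 change was 0.28 ± 0.16 in the mutant (95% interval -0.07 to 0.63; limma adjusted p = 1.00) and 0.34 ± 0.16 in wild type (-0.01 to 0.69; adjusted p = 0.942). With the replicate number as a block, the mutant change did not pass (limma adjusted p = 0.110) and the wild type change did (adjusted p = 0.0427). That fit called 6.31% of all tested genes in the mutant and 7.03% in wild type, and of the set it called 1 of 7 in the mutant and 2 of 7 in wild type.

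cka-1 (C28D4.2, chromosome IV, 9731737 to 9737621, minus strand) had the highest level per kilobase of the choline kinase genes in control animals. It had 1217, 1300 and 1254 normalised reads in mutant fluvastatin and 1254, 1274 and 1135 in mutant control libraries. In wild type it had 1256, 1378 and 1266 with fluvastatin against 1166, 1272 and 1042 without. Both pairs of groups overlapped. The log2 changes were 0.04 ± 0.09 (95% interval -0.16 to 0.25) in the mutant and 0.17 ± 0.09 (-0.04 to 0.37) in wild type, which did not pass. With the block the wild type interval was 0.04 to 0.29 (limma unadjusted p = 0.013, adjusted p = 0.128), which did not pass either. Fluvastatin libraries were higher in 3 of 3 wild type pairs of the same number and in 2 of 3 mutant pairs. The 2 transcript models of cka-1 gave nearly the same ratio of fluvastatin to control means, 1.03 and 1.04 in the mutant and 1.12 for both in wild type. Models of 1 gene can share reads, so this likeness is no separate evidence.

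cka-2 (C52B9.1, chromosome X, 4286124 to 4291496, plus strand) was a low transcript that varied more between replicates than between treatments. It had 93.7, 55.9 and 119 normalised reads in mutant fluvastatin and 101, 79.0 and 94.2 in mutant control libraries. Wild type libraries had 99.4, 68.7 and 104.4 with fluvastatin, against 94.8, 77.8 and 97.3 without. Replicate 2 was the lowest in all 4 groups. The log2 changes, -0.08 ± 0.28 in the mutant and -0.00 ± 0.28 in wild type, had 95% intervals of -0.71 to 0.54 and -0.63 to 0.62. Without replicate 2 of the mutant fluvastatin group the mutant change was 0.22. The gene shares 39 of its 2860 exonic bases with paf-2 on the opposite strand, and reads there could not be assigned by strand.

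**Figure D2:**
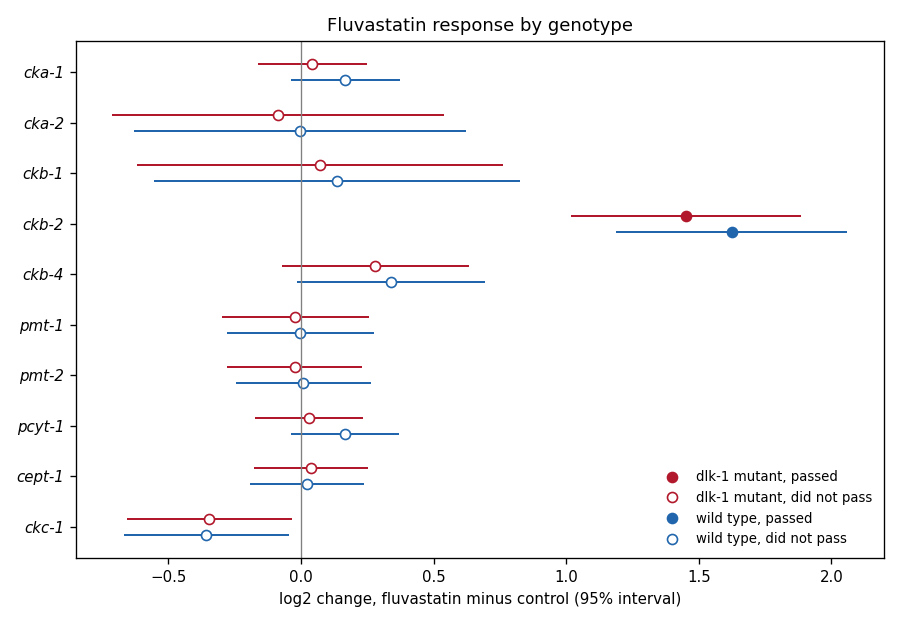
Log2 change (fluvastatin minus control, x axis, with 95% intervals from limma) of the tested genes of the set, with pcyt-1, cept-1 and ckc-1, for the dlk-1 mutant (red, upper) and wild type (blue, lower). Filled points passed an adjusted p of 0.05. Only ckb-2 is filled among the genes drawn, at 1.45 in the mutant and 1.62 in wild type, and the intervals of both pmt genes lie within 0.30 of 0. The fit drawn has no replicate block. With the block ckc-1 also passed in both genotypes and ckb-4 in wild type.

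The methyltransferase genes of the other branch had the highest levels per kilobase of the set and did not pass in any comparison. pmt-1 (ZK622.3, chromosome II, 5278090 to 5282523, minus strand) had 26692, 23524 and 27628 normalised reads in mutant fluvastatin libraries, against 28848, 22484 and 27965 in mutant control libraries. In wild type it had 26581, 22758 and 27336 with fluvastatin, against 26032, 22868 and 27927 without. Replicate 2 was the lowest in each group, and both pairs of groups overlapped. The log2 changes were -0.02 ± 0.12 in the mutant and -0.00 ± 0.12 in wild type, with 95% intervals of -0.30 to 0.25 and -0.28 to 0.27. Its 4 transcript models lay between 7.39% and 100% of the highest and had ratios of 0.980 to 0.982 in the mutant and 0.993 to 0.999 in wild type. These models too can share reads.

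pmt-2 (F54D11.1, chromosome V, 4628580 to 4635263, plus strand) encodes the enzyme of the later methylations. It had 4733, 4922 and 5397 normalised reads in mutant fluvastatin and 5079, 4486 and 5797 in mutant control libraries, and 4901, 4677 and 5320 in wild type fluvastatin against 4797, 4502 and 5543 in wild type control libraries. Replicate 3 was the highest in every group and the treatments overlapped. The log2 changes were -0.02 ± 0.11 in the mutant (95% interval -0.28 to 0.23) and 0.01 ± 0.11 in wild type (-0.24 to 0.26). For both pmt genes the intervals leave out changes as large as that of ckb-2 in either direction.

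The genes for the steps after phosphocholine did not pass. pcyt-1 (F08C6.2, chromosome X, 7572357 to 7581055, plus strand) had 1159, 1012 and 1224 normalised reads in mutant fluvastatin, against 1115, 1125 and 1075 in mutant control libraries, and 1277, 1194 and 1333 in wild type fluvastatin, against 1206, 1128 and 1060 in wild type control libraries. Its log2 changes were 0.03 ± 0.09 (95% interval -0.17 to 0.23) and 0.17 ± 0.09 (-0.04 to 0.37) in mutant and wild type. With the block the wild type interval was 0.01 to 0.32 (limma unadjusted p = 0.0347, adjusted p = 0.230). Fluvastatin libraries were higher in 3 of 3 wild type pairs of the same number and in 2 of 3 mutant pairs. cept-1 (F22E10.5, chromosome X, 12762078 to 12765898, plus strand) had 599, 521 and 544 in mutant fluvastatin, against 568, 508 and 542 in mutant control libraries, and 607, 557 and 642 in wild type fluvastatin, against 636, 581 and 559 in wild type control libraries. Its log2 changes were 0.04 ± 0.10 (-0.18 to 0.25) in the mutant and 0.02 ± 0.10 (-0.19 to 0.24) in wild type. Neither gene passed in either genotype, with or without the block.

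Levels were set side by side per kilobase of the transcript model, with only the highest-mean model of each gene. In wild type control animals the order of mean levels was pmt-1 (17834 normalised reads per kilobase), pmt-2 (3143), pcyt-1 (814), cka-1 (714), cept-1 (402), ckb-2 (264), ckb-4 (131), cka-2 (57.7), ckb-1 (46.5) and ckb-3 (0.534). The libraries of neighbours in that order did not overlap, except pcyt-1 with cka-1 and cka-2 with ckb-1. The mutant control group had the same order with the same overlaps. With fluvastatin ckb-2 stood higher in the order. In mutant fluvastatin libraries its level was 642 ± 64.4 per kilobase, between cka-1 (773 ± 25.6) and cept-1 (376 ± 27.1) with no overlap on either side. In wild type fluvastatin libraries it was 803 ± 78.4 per kilobase and overlapped both cka-1 (800 ± 41.8) and pcyt-1 (912 ± 50.3).

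The summed level of the 6 choline kinase genes was 1669 ± 68.0 normalised reads per kilobase in mutant fluvastatin libraries, against 1217 ± 112 in mutant control libraries. In wild type it was 1879 ± 54.6 with fluvastatin, against 1213 ± 113 without. The sums did not overlap between treatments, and the ratios were 1.37 in the mutant and 1.55 in wild type. ckb-2 made up 89.3% of the summed difference in the mutant and 81.0% in wild type. Its share of the sum was 38.4 ± 2.34% in mutant fluvastatin and 19.4 ± 3.22% in mutant control libraries, and 42.7 ± 2.92% in wild type fluvastatin against 21.6 ± 3.58% in wild type control libraries. The share of cka-1 was 46.4 ± 1.40% with fluvastatin and 61.9 ± 2.04% without in the mutant, and 42.6 ± 2.51% and 58.8 ± 0.917% in wild type. These sums and shares are descriptions of transcript levels, with no test. They hold only the highest-mean model of each gene. A second model lay at 57.2% of the first for cka-1 and at 90.1% for cka-2, while ckb-2 has 1 model. Whether reads were divided between models was not tested, and if so the levels of cka-1 and cka-2 are understated.

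**Figure D3:**
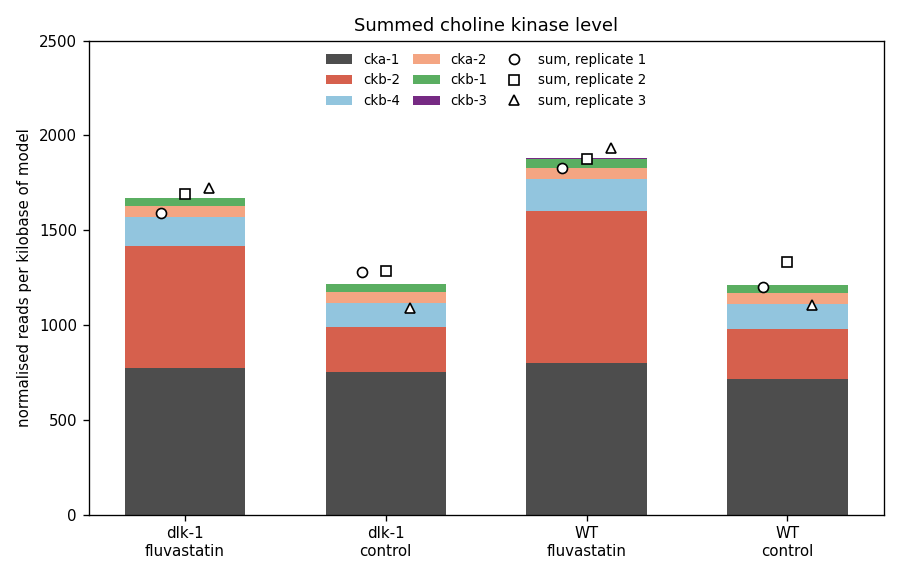
Mean level of each choline kinase gene (stacked, normalised reads per kilobase of model, linear y axis from 0) in dlk-1 mutant fluvastatin, dlk-1 mutant control, wild type (WT) fluvastatin and wild type control libraries. Open markers are the sums of single libraries. The ckb-2 segment is 642 against 238 in the mutant and 803 against 264 in wild type, while the cka-1 segment is 773 against 751 and 800 against 714.

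The response of the set was not shown to differ between genotypes. For ckb-2 the difference of the responses, mutant minus wild type, was -0.17 ± 0.28 (95% interval -0.79 to 0.44; limma adjusted p = 1.00). None of the 7 tested genes was called for this difference by limma, with 0 at an unadjusted p below 0.05 without the block and 0 with the block, edgeR or DESeq2, where limma called 0% of all tested genes. Under fluvastatin, the ckb-2 libraries of the mutant (682 to 830) all lay below those of wild type (881 to 1065). That difference was -0.32 ± 0.20 on the log2 scale (95% interval -0.76 to 0.11; limma adjusted p = 1.00, unadjusted p = 0.129) and did not pass. With the block its 95% interval was -0.657 to 0.009 (limma adjusted p = 0.649, unadjusted p = 0.0556), and it did not pass either. In pairs of the same number it was -0.37, -0.25 and -0.36. Without fluvastatin the mutant (222 to 355) and wild type (257 to 398) overlapped, with a difference of -0.15 ± 0.20 (-0.59 to 0.28). In both mutant and wild type comparisons 0 of 7 genes of the set passed by limma, the block, edgeR or DESeq2, and 0 had an unadjusted p below 0.05 in limma with or without the block. Limma called 0% of all tested genes in each of these comparisons, and with the block 0.27% under fluvastatin and 0.0966% without it. The comparisons share libraries, and the values of each are given side by side only.

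Replicate number set much of the spread within the groups. Of the 7 tested genes 6 (85.7%) had the same replicate number as the highest or the lowest library in all 4 groups, against 74.3% of all 15529 tested genes. Replicate 2 was highest for cka-1 and lowest for cka-2 and pmt-1, replicate 1 was highest for ckb-1 and ckb-4, and replicate 3 was highest for pmt-2. ckb-2 was the exception, and its highest library was replicate 2 in both control groups and replicate 3 in both fluvastatin groups. The genes did not move together with the number, since cka-1 was high where cka-2 and pmt-1 were low.

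**Figure D4:**
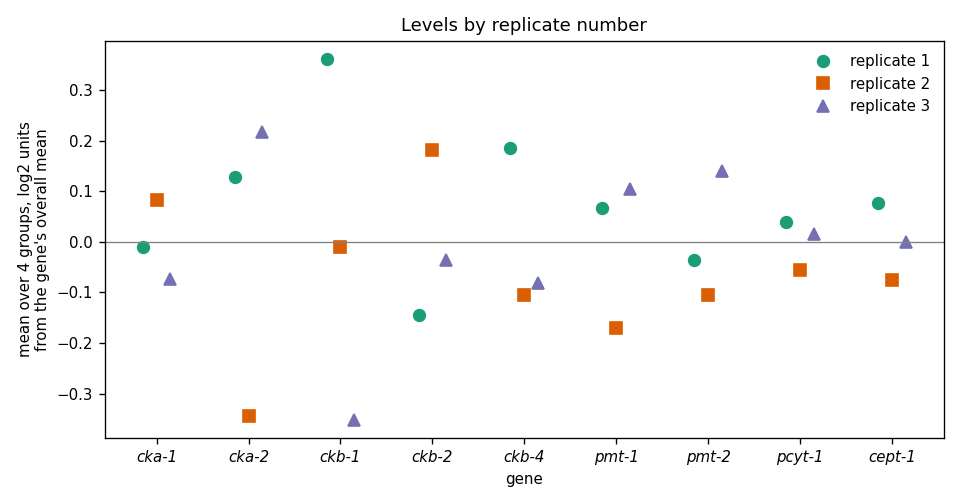
Mean over the 4 groups of each replicate number (y axis, log2 units from the gene's mean over all 12 libraries) for the tested genes of the set and for pcyt-1 and cept-1. Markers are replicate numbers 1, 2 and 3. Replicate 2 stands lowest for cka-2, ckb-4, pmt-1, pmt-2, pcyt-1 and cept-1 and highest for cka-1 and ckb-2.

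Genes that supply the branches were next examined as lists. Of 9 genes of methyl donor supply, which make and recycle S-adenosylmethionine, 0 passed in either genotype by limma, the block, edgeR or DESeq2. In limma without the block 0 had an unadjusted p below 0.05. With the block sams-1, mtrr-1 and mel-32 had such a p in the mutant (log2 -0.16, -0.12 and -0.14), and metr-1 in wild type (0.11). Their limma adjusted p with the block was 0.148 to 0.208. The share of all tested genes at that unadjusted p was not counted. sams-1, the S-adenosylmethionine synthetase gene linked to phosphatidylcholine in worms, averaged 5807 ± 1125 normalised reads in mutant fluvastatin and 6498 ± 1255 in mutant control libraries, and 5949 ± 635 in wild type fluvastatin against 6216 ± 1129 in wild type control libraries. The list's median log2 change was -0.07 in the mutant and -0.05 in wild type, where the median of all tested genes was 0.01 in both. sams-3 and sams-4 are close copies, and reads could be divided between them.

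Of 7 genes of phosphatidic acid and diacylglycerol supply 0 passed in either genotype by limma, the block, edgeR or DESeq2. At an unadjusted p below 0.05 in limma without the block there was 1 in the mutant, acl-2, an acyltransferase gene, with 938 ± 5.74 normalised reads with fluvastatin against 1095 ± 48.0 without (log2 -0.22 ± 0.08, limma adjusted p = 0.499), and 0 in wild type. With the block acl-1 was added in the mutant (log2 -0.21, limma adjusted p = 0.156). The phosphatidic acid phosphatase gene lpin-1 averaged 1994 ± 77.8 in mutant fluvastatin and 1939 ± 121 in mutant control libraries, and 2099 ± 57.7 in wild type fluvastatin against 1943 ± 79.1 in wild type control libraries. The medians of the list were -0.07 in the mutant and -0.01 in wild type.

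The ethanolamine and serine phospholipid list held 7 genes, of which 0 passed by limma, edgeR or DESeq2 in either genotype. Its 1 gene with an unadjusted p below 0.05 in limma without the block, in both, was ckc-1, a choline and ethanolamine kinase family gene outside the set. ckc-1 had 506, 443 and 408 normalised reads in mutant fluvastatin libraries, against 687, 552 and 494 in mutant control libraries. In wild type it had 540, 468 and 456 with fluvastatin, against 667, 565 and 643 without. It was lower with fluvastatin in 3 of 3 pairs of the same number in both genotypes, the direction opposite to ckb-2. The log2 change was -0.35 ± 0.14 in the mutant (limma adjusted p = 0.696) and -0.36 ± 0.14 in wild type (adjusted p = 0.594), and with the block it passed in both (adjusted p = 0.0155 and 0.011). For fluvastatin the block called 6.31% of all tested genes in the mutant and 7.03% in wild type. With the block cept-2 also had an unadjusted p below 0.05 in wild type (limma, log2 0.12, adjusted p = 0.27). The gene pcyt-2.1, for the cytidyl transferase of the ethanolamine branch, averaged 760 ± 4.56 and 768 ± 7.12 in the mutant with and without fluvastatin, and 769 ± 18.5 and 768 ± 33.2 in wild type.

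Choline uptake and acetylcholine genes gave no call. Of 8 names 7 were found and tested, since unc-17 shares a sequence name with cha-1, whose model was the higher, and 0 passed by limma, the block, edgeR or DESeq2, with 0 at an unadjusted p below 0.05 in limma without the block. The choline transporter-like gene chtl-1 averaged 1305 ± 352 in mutant fluvastatin and 1154 ± 379 in mutant control libraries, and 1285 ± 310 in wild type fluvastatin against 1166 ± 337 in wild type control libraries. With the block its unadjusted p was below 0.05 in the mutant (limma, log2 0.20, adjusted p = 0.153). Among 5 further genes, sphingomyelin synthases and a phospholipase D, which use phosphatidylcholine, and mboa-6, the same tests also gave 0 in both genotypes. At that unadjusted p there were 0 without the block and, with it, mboa-6 in the mutant (log2 -0.12, limma adjusted p = 0.212). sms-1 averaged 3590 ± 190 in mutant fluvastatin and 3427 ± 351 in mutant control libraries, and 3392 ± 43.9 in wild type fluvastatin against 3243 ± 336 in wild type control libraries.

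In the list of SBP-1 and its lipogenic targets 0 of 8 genes passed by limma or edgeR in either genotype. The palmitoyl-CoA desaturase gene fat-5 averaged 325 ± 83.3 normalised reads in mutant fluvastatin and 184 ± 30.9 in mutant control libraries, and 551 ± 121 in wild type fluvastatin against 339 ± 60.5 in wild type control libraries. Its log2 changes were 0.80 ± 0.23 (limma adjusted p = 0.219, 0.000134 with the block) in the mutant and 0.69 ± 0.23 (adjusted p = 0.332, 0.000433 with the block) in wild type. With the block it also passed as lower in the mutant than in wild type, by log2 -0.76 under fluvastatin (adjusted p = 0.015) and -0.88 without it (adjusted p = 0.00526). In these comparisons the block called 0.27% and 0.0966% of all tested genes. sbp-1 averaged 482 ± 45.6 and 369 ± 29.7 in the mutant with and without fluvastatin, and 497 ± 50.8 and 430 ± 25.6 in wild type. With the block its log2 change was 0.38 ± 0.09 in the mutant, which passed (limma adjusted p = 0.018, against 0.279 without the block), and 0.21 ± 0.09 in wild type, which did not (adjusted p = 0.239). The difference between these changes was 0.18 ± 0.16 without the block (adjusted p = 1.00). For fluvastatin the block called 6.31% of all tested genes in the mutant and 7.03% in wild type. At an unadjusted p below 0.05 in limma without the block there were 3 genes in the mutant, fat-7, fat-5 and sbp-1, and 1 in wild type, fat-5. With the block the same genes had such a p in the mutant, and sbp-1 was added in wild type. The stearoyl-CoA desaturase gene fat-7, which has a close copy in fat-6, averaged 453 ± 113 and 908 ± 237 in the mutant with and without fluvastatin, and 649 ± 164 and 949 ± 282 in wild type. It had a log2 change of -0.99 ± 0.29 in the mutant (limma adjusted p = 0.252), where it was the list's 1 call by DESeq2, and of -0.54 ± 0.29 in wild type (adjusted p = 1.00). DESeq2 called 362 of all 15529 tested genes for fluvastatin in the mutant. fat-5 and sbp-1 overlap other genes on the opposite strand by 28 and 48 exonic bases.

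The list of the unfolded protein response of the endoplasmic reticulum was the only one with calls in limma without the block. Of its 13 genes 2 rose in the mutant and 4 in wild type, and 0 fell, where the share of all tested genes called was 1.38% and 1.82%. edgeR called 2 in the mutant and 4 in wild type, where it called 203 and 272 of all 15529 tested genes. DESeq2 called 5 and 7, where it called 362 and 437 of all tested genes. With the block 7 rose in the mutant and 9 in wild type, again with 0 falls, where 6.31% and 7.03% of all tested genes were called. dnj-7, a chaperone gene of that compartment, averaged 982 ± 33.1 normalised reads in mutant fluvastatin and 615 ± 67.2 in mutant control libraries, and 1051 ± 58.3 in wild type fluvastatin against 568 ± 88.5 in wild type control libraries. Its log2 rise was 0.68 ± 0.12 in the mutant (limma adjusted p = 0.0218) and 0.90 ± 0.12 in wild type (adjusted p = 0.00284). The disulfide isomerase gene pdi-6 averaged 2334 ± 154 and 1692 ± 48.6 in the mutant with and without fluvastatin, and 2566 ± 198 and 1657 ± 96.2 in wild type. It rose by 0.46 ± 0.09 in the mutant (limma adjusted p = 0.0244) and 0.63 ± 0.09 in wild type (adjusted p = 0.00266).

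hsp-4, which encodes the BiP chaperone and is the usual reporter of this response in worms, averaged 8099 ± 731 and 5973 ± 455 normalised reads in the mutant with and without fluvastatin, and 8069 ± 577 and 5423 ± 102 in wild type. Its change was 0.44 ± 0.09 in the mutant (limma adjusted p = 0.0518, 0.000323 with the block) and 0.57 ± 0.09 in wild type (adjusted p = 0.00856). hsp-3 is a close copy of hsp-4, and reads could be divided between them. Y41C4A.11 averaged 545 ± 30.5 and 124 ± 129 in the mutant with and without fluvastatin, and 920 ± 135 and 105 ± 61.02 in wild type. Its mutant change of 2.62 ± 0.63 did not pass (limma adjusted p = 0.106), and in wild type it rose by 3.31 ± 0.63 (adjusted p = 0.0236). With the block, calls were added in both genotypes for the chaperone genes hsp-3, enpl-1 and crt-1 (log2 0.33, 0.22 and 0.30 in the mutant, and 0.38, 0.30 and 0.38 in wild type) and for the transcription factor gene xbp-1 (0.22 in both), and in wild type for dnj-27 (0.45 in the mutant and 0.49 in wild type). The median log2 change of the list was 0.30 in the mutant and 0.38 in wild type. The change of ckb-2 was larger than that of every gene of this list but Y41C4A.11 in both genotypes. The difference between genotypes passed for 0 of the 13 genes by limma, the block, edgeR or DESeq2, where the block called 0% of all tested genes. At an unadjusted p below 0.05 in limma there were 0 genes without the block and, with it, pdi-6 (log2 -0.17) and pek-1 (-0.30). This list was chosen with earlier results of these libraries known and is no independent evidence of a direction.

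**Figure D5:**
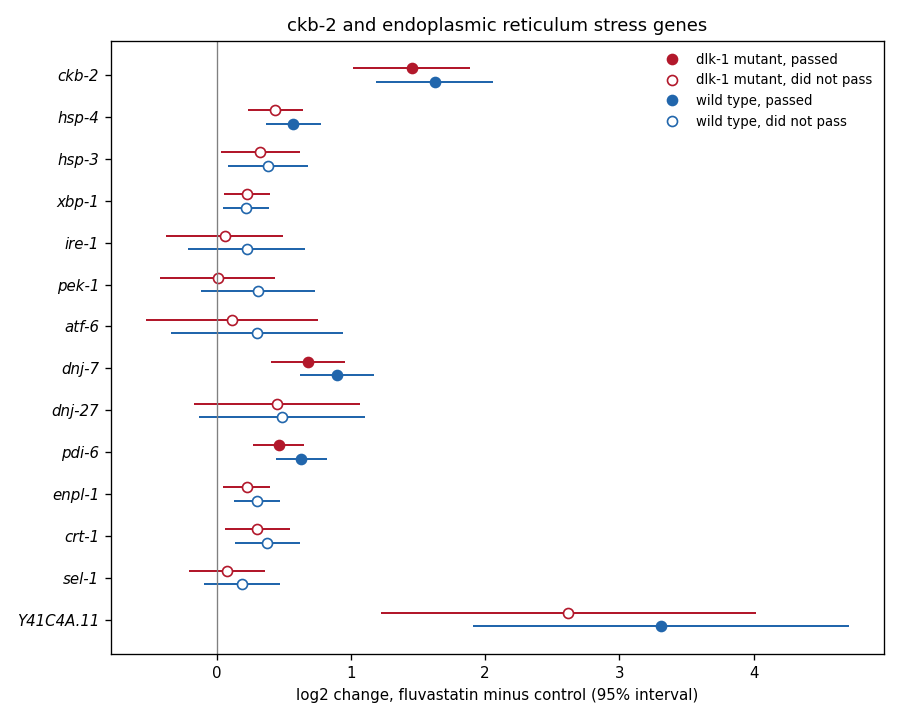
Log2 change (fluvastatin minus control, x axis, with 95% intervals from limma) of ckb-2 and of 13 genes of the endoplasmic reticulum unfolded protein response, for the dlk-1 mutant (red, upper) and wild type (blue, lower). Filled points passed an adjusted p of 0.05. dnj-7 and pdi-6 are filled in both genotypes, hsp-4 and Y41C4A.11 in wild type, and the ckb-2 points lie to the right of all others but those of Y41C4A.11. The fit drawn has no replicate block, with which more of these genes passed.

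The genes whose pattern was most like that of ckb-2 were taken among tested genes outside the set with a mean of at least 50 normalised reads, by Pearson's r on the log2 scale over the 12 libraries. They were alh-10, an aldehyde dehydrogenase gene (r = 0.988, Spearman's rho = 0.951), ugt-45, a UDP-glucuronosyltransferase gene (r = 0.985, rho = 0.958), K09C4.5 (r = 0.983, rho = 0.965), R10D12.9 (r = 0.982, rho = 0.937) and Y41E3.8 (r = 0.980, rho = 0.923). The libraries fall into fluvastatin and control groups, so these values describe a shared response and not a relation within a group, and they carry no test. alh-10 averaged 392 ± 3.43 and 224 ± 34.3 normalised reads in the mutant with and without fluvastatin, and 449 ± 13.8 and 242 ± 21.0 in wild type. ugt-45 averaged 411 ± 10.5 and 183 ± 53.3 in the mutant, and 472 ± 37.5 and 186 ± 49.1 in wild type, with and without fluvastatin. K09C4.5 had a log2 rise of 2.47 ± 0.34 in the mutant and 2.55 ± 0.34 in wild type, and R10D12.9 of 2.27 ± 0.28 and 2.60 ± 0.28. Y41E3.8 had rises of 0.71 ± 0.12 and 0.75 ± 0.12. Since they were picked for following ckb-2, whose libraries separate by treatment, their rises come with the choice and are given as values only.

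Markers of 8 tissues and cell types (36 genes) were detected, with none at 0 in all libraries, and 0 passed in any comparison by limma, the block, edgeR or DESeq2, with 0 at an unadjusted p below 0.05 in limma without the block. The summed intestine markers, the tissue of much lipid synthesis in worms, lay between 13022 and 16932 normalised reads in mutant fluvastatin and 11780 and 18459 in mutant control libraries, and between 12215 and 17318 in wild type fluvastatin and 12329 and 19137 in wild type control libraries. The fluvastatin and control ranges of the sum overlapped for each of the 8 lists in both genotypes. The sum with the largest ratio of highest to lowest library, 6.20, was that of the sperm markers. It was 95.8 to 541 with fluvastatin and 93.1 to 577 without, with replicate 2 lowest in each group. In pairs of the same replicate number, the summed epidermis and cuticle markers and the summed yolk markers were lower with fluvastatin in 6 of 6 pairs. A sum follows its most abundant genes. The median log2 change of the 5 epidermis and cuticle markers was -0.14 in the mutant and 0.006 in wild type, so not all of them fell. That of the 2 yolk markers was -0.25 and -0.29. The epidermis and cuticle sums were 6108, 3927 and 5614 in mutant fluvastatin against 6857, 4305 and 6327 in mutant control libraries, and 5978, 3354 and 5161 in wild type fluvastatin against 6206, 4030 and 6020 in wild type control libraries. The yolk sums were 38700, 54177 and 51778 in mutant fluvastatin against 43923, 54610 and 75713 in mutant control libraries, and 40516, 45557 and 48549 in wild type fluvastatin against 44786, 58470 and 62076 in wild type control libraries. The sums of the other 6 lists were lower in 2 or 3 of 6 pairs. Their part in the ckb-2 rise was not tested.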

How the data were processed

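RNA of 12 libraries (4 groups of 3) was analysed. The deposited table gives a normalised signal, read counts divided by 1 size factor per library (0.843 to 1.18), for 34873 transcript models and loci. Bowtie and DESeq2 are named per the submitters' processing notes, without version, and no source used here names the build behind the values. Whole reads were recovered for 100% of values within 0.01 read. The highest-mean model per sequence name was kept, and 3037 genes had several. One limma fit (3.58.1, in R 4.3.3, with robust and trend moderation) held all groups on log2(value + 1), two-sided, with adjustment over 15529 genes and a threshold of 0.05. This scale understates changes of low genes. Alternatives were edgeR 4.0.16 and DESeq2 1.42.0 on recovered reads, other pseudocounts, filters, scaling and models, left-out libraries, and a replicate block. Deviations correlated in all 18 pairs of the same replicate number (0.555 to 0.887), so the numbers were taken as pairing libraries, from these correlations and not from labels. The main fit has no replicate term, so its intervals and p-values leave this pairing out, and only the block uses it. For pmt-1 under fluvastatin the SE was 0.12 in the main fit and 0.04 with the block. Scripts were tested on simulated data. Genes named are the set, every gene of the lists past the threshold with or without the block, other genes of the lists for their role or unadjusted p, and the 5 most like ckb-2. The share of all tested genes with an unadjusted p below 0.05 was not counted. Genes named for such a p therefore have no background beside them and are not calls. The set and lists were chosen with earlier results of these data known. Coordinates are WBcel235, Ensembl release 115. Counting error was not separated from the spread between libraries, and it weighs most on genes with few reads, such as cka-2, ckb-1 and ckb-3.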

Additional observations from a re-analysis of the deposited data

How the results depend on the processing

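Each of 35 gene values (7 genes in 5 comparisons) was recomputed under the alternatives, giving 833 values, of which 828 kept their side of the threshold, 4 lost a call and 1 gained one. The sign differed from the reported one in 88 values, 83 of them with libraries left out. None of these was a call in either setting, they came from all 7 genes, and the reported values were at most 0.17 in size. The ckb-2 rise stayed called in 22 of 24 alternatives in each genotype, with log2 values of 1.23 to 1.62 in the mutant and 1.49 to 1.82 in wild type. The number of called genes of the set was between 0 and 1 in both genotypes with libraries left out. It was 0 without all libraries of number 1 or of number 3, which leaves 2 libraries a group. With the replicate block, wild type had 2 called genes instead of 1, ckb-4 being added at an unchanged log2 value of 0.34, and no other call among the genes of the set changed. Among the values that changed sign, those that moved by more than their SE were 2 values of cka-2 without replicate 2 of the mutant fluvastatin group. With libraries left out, its log2 value for fluvastatin in the mutant was between -0.32 and 0.22, and for mutant minus wild type under fluvastatin between -0.30 and 0.24. The cause was not tested. A fit of only the groups compared does not apply to the difference between genotypes, and ckb-3 entered only without a filter.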
